A study of Mus musculus with 8 samples.

Results

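The histone genes measured here include those whose symbols start with Hist1h, Hist2h, Hist3h or Hist4h. They are called clustered below because most lie in shared gene clusters, although Hist4h4 is the only such symbol on chromosome 6. The others are the variant genes, whose symbols start with H2af, H3f3 or H1f. The count table held 84 such symbols among 24421 genes, and 50 of them, those counted in 2 or more of the 8 libraries, were followed, 40 of 68 clustered and 10 of 16 variant genes. Of the other 34 symbols, 25 were at 0 in every library and 9 had counts in 1 library only, at most 2 counts each. The study compared WT neutrophils with those of Padi4 KO mice, which lack the peptidylarginine deiminase that citrullinates histones, before and after a TLR7 signal. Neutrophils were isolated magnetically from the bone marrow of 8-week-old female C57BL/6 mice, and the Padi4 KO carries a deletion of exon 1. The 4 groups were WT and Padi4 KO cells left unstimulated and WT and Padi4 KO cells given 1 µg/ml of R848, a TLR7 agonist, with 2 libraries each. The labels time the R848 libraries at 6 h and the unstimulated libraries at 0 h, whereas the methods give 6 h for both. Should the labels be right, 6 h of culture is part of each R848 response. The labels do not say whether duplicates came from separate mice, so p-values measure only the spread between these libraries, which may be technical.

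Histones H2A, H2B, H3 and H4 form the nucleosome core on which DNA is wound, and linker H1 binds where DNA enters and leaves it. Most clustered genes are transcribed when a cell copies its DNA, and their mRNAs end in a short stem-loop in place of a poly(A) tail, whereas variant genes are read outside S phase into polyadenylated mRNAs. Mature neutrophils no longer divide, and citrullinated histones are a known component of the chromatin they release as extracellular traps. Libraries made with a kit that selects poly(A) RNA, as here, recover stem-loop mRNAs poorly, so the clustered counts are not a measure of all clustered histone mRNA.

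The libraries held between 562446 and 1177972 counts on genes, and 3 counts, the floor used here, equalled 2.55 to 5.33 CPM, counts scaled to a library of 1e6. Padi4 had 590 and 527 counts in unstimulated WT, 40 and 54 in unstimulated Padi4 KO, 166 and 234 in WT after R848, and 34 and 21 in Padi4 KO after R848. The summed level of 16 neutrophil markers relative to the library total was 164000 to 170000 CPM in unstimulated WT and 154000 to 167000 in WT after R848, and lower in Padi4 KO, at 134000 to 136000 and 126000. Markers of other cells also differed between groups. The 21 erythroid markers in the table, of which 5 globin genes were at 0, summed to 153 to 156 CPM in unstimulated WT and 23.9 to 29.5 in WT after R848, against 1600 to 1610 and 1640 to 1700 in Padi4 KO. The 13 monocyte and macrophage markers went from 584 to 669 CPM to 3130 to 3190 with R848 in WT and from 1430 to 1450 CPM to 3320 to 3430 in Padi4 KO. The 10 stromal and endothelial markers, with Adipoq at 0, went from 217 to 240 CPM to 22.4 to 22.9 in WT and from 589 to 767 CPM to 36.1 to 37.4 in Padi4 KO. The 9 T and NK markers (Cd3e, Cd2 and Klrb1c at 0) summed to 15.6 to 16 CPM in unstimulated WT and to 1.7 to 6.17 in the other groups. The 10 B lymphoid markers (Ebf1 at 0) summed to 4.92 to 18.5 CPM over all libraries. The 9 eosinophil, basophil and mast cell markers (Ear2 at 0) summed to 44.4 to 76.4 and 36.1 to 37.4 CPM in WT without and with R848 and to 40.5 to 44.4 and 20.3 to 30.6 in Padi4 KO. The part of these marker differences in the histone values and gene lists below was not tested.

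The stem-loop that sets clustered mRNAs apart is shown for the members with the pattern that were called after R848, and for Hist1h2be and Hist1h4i, which were not called, from GENCODE transcripts on GRCm38. The 16 bases are printed 5′ to 3′ on the mRNA strand with the 4 loop bases in capitals.
Hist1h1c (linker H1, chr13:23739512-23739527, plus strand): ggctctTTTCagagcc
Hist1h1d (linker H1, chr13:23555787-23555802, plus strand): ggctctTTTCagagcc
Hist1h1e (linker H1, chr13:23621782-23621797, minus strand): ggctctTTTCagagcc
Hist1h2bg (H2B, chr13:23571843-23571858, plus strand): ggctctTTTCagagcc
Hist1h2be (H2B, chr13:23585531-23585546, minus strand): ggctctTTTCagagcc
Hist1h4i (H4, chr13:22040966-22040981, minus strand): ggccctTTTTagggcc
H2afx (H2A.X, chr9:44335240-44335255, plus strand): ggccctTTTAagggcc
All are in the 3′ UTR, and the 6-base arms on either side of the loop are reverse complements of each other. The pattern searched, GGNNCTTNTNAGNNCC on the mRNA strand, was present in 47 of 64 histone symbols with an annotated 3′ UTR of at least 20 bases and in 86 of 20927 protein-coding genes with one, a share of 0.411%. It was present in 29 of 33 clustered members with an annotated UTR. In Hist1h1c it starts 25 bases after the stop codon and ends 840 bases before the annotated transcript end. The same distances are 30 and 155 bases in Hist1h2bg, 30 and 1861 in Hist1h2be, and 31 and 330 in Hist1h4i. In H2afx, the variant gene that also has a stem-loop, they are 47 and 822 bases. Hist1h2bc, the clustered gene with the most counts after Hist1h1c, has an annotated transcript of 2 exons without the pattern.

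The sequence upstream of Hist1h1c and Hist1h2bg is shown because these members fell together after R848. RefSeq on GRCm38.p6 gives the following bases before the start of each gene, plus strand, with CCAAT and TATAAA on either strand in capitals.
Hist1h1c (chr13:23738557-23738806): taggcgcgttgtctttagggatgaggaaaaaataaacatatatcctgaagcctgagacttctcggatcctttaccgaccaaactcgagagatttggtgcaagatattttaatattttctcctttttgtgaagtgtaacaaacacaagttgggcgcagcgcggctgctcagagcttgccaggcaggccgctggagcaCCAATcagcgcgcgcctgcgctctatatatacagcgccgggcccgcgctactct
Hist1h2bg (chr13:23571221-23571395): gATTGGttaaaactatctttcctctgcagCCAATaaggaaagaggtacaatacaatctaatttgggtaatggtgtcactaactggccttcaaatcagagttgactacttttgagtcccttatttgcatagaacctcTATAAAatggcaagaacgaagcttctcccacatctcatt
The 250 bases of Hist1h1c hold 1 CCAAT and no TATAAA, and the 175 bases of Hist1h2bg hold 2 CCAAT and 1 TATAAA. The window of Hist1h2bg runs from the annotated Hist1h2ae gene, on the opposite strand, to where its own GENCODE gene starts. Only exact CCAAT and TATAAA were searched, so other TATA-like runs, such as the one near the start of Hist1h1c, were not counted. The CCAAT motif was found in 33.8% and TATAAA in 12.4% of all 32851 RefSeq promoters over 250 bases, and over the window of Hist1h2bg in 27.1% and 8.77%. Of the 61 clustered symbols with a promoter in the table, 50 held CCAAT and 29 held TATAAA. Of 13 variant symbols, 8 held CCAAT and 1 held TATAAA. A match describes letters in a window and not a binding site.

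Nearly all histone reads came from variant genes. They gave 19287 counts over the 8 libraries, 95.3% of the histone counts, and the 68 clustered symbols gave 951. Sums and shares over a class count every symbol in it, whether or not it passed the filter on counts. The clustered share of the histone counts was 6.12% and 6.08% in unstimulated WT, 7.51% and 6.57% in unstimulated Padi4 KO, 2.17% and 2.67% in WT after R848, and 3.46% and 3.45% in Padi4 KO after R848. All 4 R848 libraries were below all 4 unstimulated libraries, and the exact Clopper-Pearson 95% intervals, which cover counting error only, ran from 1.55% to 4.11% after R848 and from 4.96% to 8.68% without it. This share is a ratio within each library and does not depend on the scaling between libraries. On the CPM scale of the TMM factors, the clustered sum was 167 ± 2.0 in unstimulated WT and 90.2 ± 15.2 after R848. In Padi4 KO it was 181 ± 15.9 and 111 ± 3.72 (mean ± SD of 2 libraries, as for all CPM values with an error). With library size alone, the ratio of R848 to unstimulated was 0.438 in WT and 0.473 in Padi4 KO, against 0.54 and 0.613 with TMM factors. The sum of the variant genes had ratios of 1.41 and 1.3 with TMM factors and of 1.14 and 1 with library size alone, so in Padi4 KO it was higher after R848 with TMM factors and level with library size alone.

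Among the clustered genes, linker H1 made the largest part of the lower sum. The 6 linker H1 symbols summed to 85.5 ± 3.73 CPM in unstimulated WT and 25.9 ± 13.5 after R848, and to 91.6 ± 9.54 and 44.2 ± 7.88 in Padi4 KO. The 19 H2B symbols went from 53.1 to 37.9 CPM in WT and from 52.6 to 43.4 in Padi4 KO. The 18 H2A symbols went from 9.82 to 6.46 and from 12.5 to 5.88 CPM, and the 12 H3 symbols from 5.68 to 3.81 and from 6.49 to 2.73. The 13 H4 symbols were at 13 and 16.1 CPM in WT and at 17.7 and 14.8 in Padi4 KO, so H4 was the class that was not lower after R848 in WT. Without Hist1h1c and Hist1h2bg, the clustered sum was 77.3 ± 4.37 and 65.2 ± 2.90 CPM in WT and 91.9 ± 5.89 and 70.0 ± 2.32 in Padi4 KO. The 46 symbols with the stem-loop pattern went from 133 to 62.0 CPM in WT and from 148 to 79.9 in Padi4 KO, and the 22 others from 33.8 to 28.2 and from 33.3 to 31.2. Without Hist1h1c and Hist1h2bg, the symbols with the pattern went from 43.5 ± 12.8 to 37.1 ± 2.34 CPM in WT. In Padi4 KO they went from 58.6 ± 1.85 to 38.9 ± 2.21. Hist1h1c and Hist1h2bg, singled out because they fell, thus made most of the lower level in both genotypes. These sums are descriptions, with no test.

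**Figure D1:**
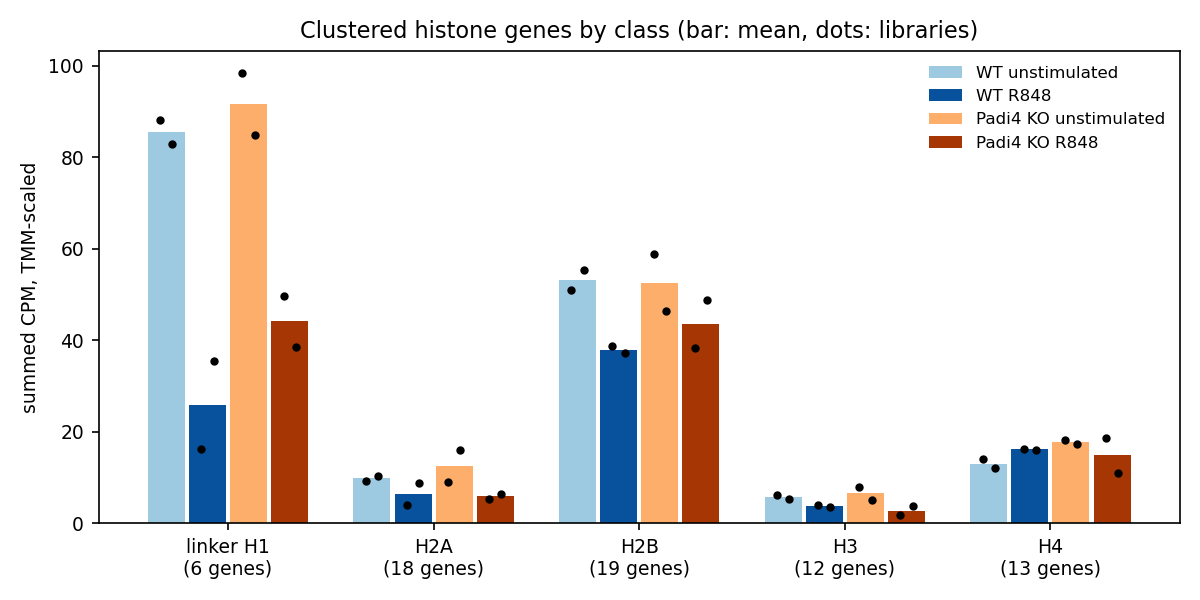
Summed level of the clustered genes by class, in CPM with TMM factors, in the 4 groups. Bars are means and dots the 2 libraries. Linker H1 was at 85.5 and 91.6 CPM on average without stimulation in WT and Padi4 KO and at 25.9 and 44.2 after R848, while H4 lay between 13 and 17.7 in all 4 groups.

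The R848 response was read gene by gene with edgeR's quasi-likelihood test and Benjamini-Hochberg adjustment over 12254 genes, with a call at an adjusted p below 0.1. In WT, 2 of the 50 members rose, where 13.5% of all genes tested rose, and 5 fell, where 16% fell. With a change over 2-fold as well, 1 rose and 3 fell, against 7.17% and 10.8% of all genes. In Padi4 KO, 2 members rose beside 19.2% of all genes and 7 fell beside 15.9%, and with the 2-fold limit 0 rose beside 8.07% and 4 fell beside 8.84%. By adjusted p the 5 that fell in WT are 10% of the members, and the 7 in Padi4 KO are 14%, shares below those of all genes. Of the members, 33 had at most 10 counts over the 8 libraries. Among the 11 members with a mean of at least 10 counts, the median log2 fold change was -0.30 in WT and 0.05 in Padi4 KO, beside -0.07 and 0.08 over the 6912 genes with such a mean. In whole-sample RNA, fewer cells of a type and less RNA per cell cannot be told apart.

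**Figure D2:**
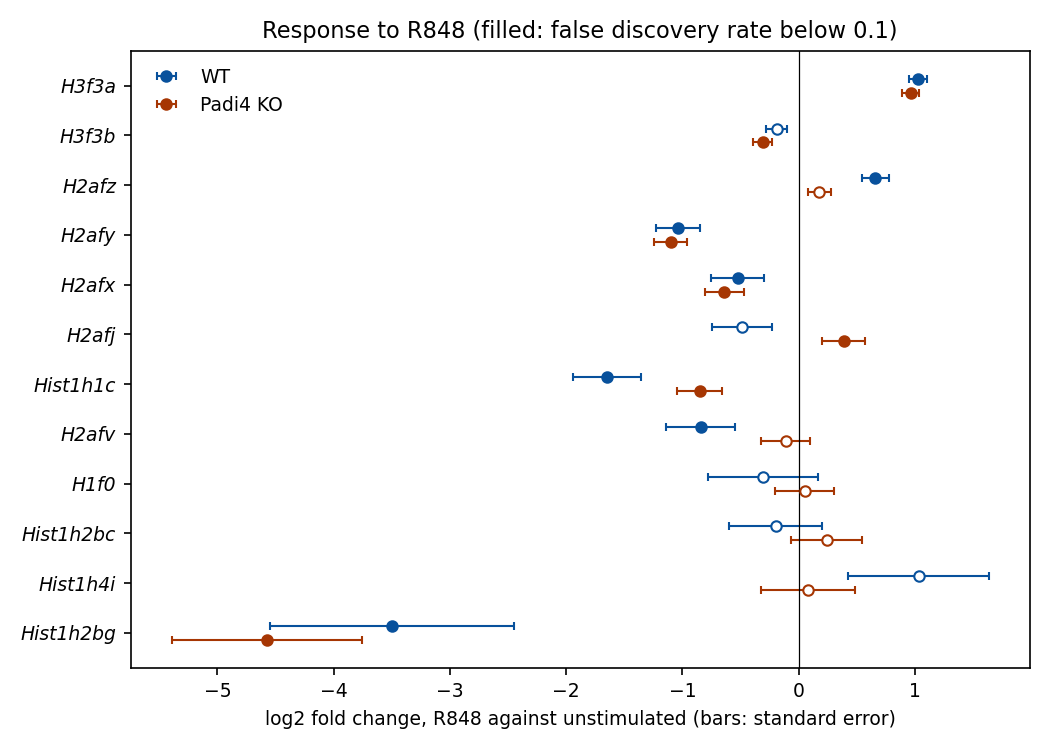
Log2 fold change after R848 in WT and Padi4 KO for the 11 members with a mean of at least 10 counts and Hist1h2bg, with edgeR standard errors as bars and filled points for calls. H3f3a lies at 1.02 and 0.96, H2afy at -1.04 and -1.10, and Hist1h2bg at -3.50 and -4.58.

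The genes H3f3a and H3f3b encode the same protein, histone H3.3, which replaces H3 in active chromatin outside replication. H3f3a (ENSMUSG00000060743.12, chr1:180800832-180813943, minus strand) stood at 1119 and 1093 CPM in unstimulated WT, 2248 and 2250.0 in WT after R848, 959 and 967 in unstimulated Padi4 KO, and 1943 and 1810.0 in Padi4 KO after R848. All 4 R848 libraries lay above all 4 unstimulated ones, on means that went from 1106 ± 18.7 to 2249 ± 1.65 CPM in WT and from 963 ± 5.52 to 1876 ± 94.3 in Padi4 KO. The rise was 1.02 ± 0.08 on the log2 scale in WT (SE, edgeR adjusted p = 5.93e-39) and 0.96 ± 0.07 in Padi4 KO (adjusted p = 2.05e-39). H3f3b (ENSMUSG00000016559.14, chr11:116021912-116027962, minus strand) had 488 and 452 counts in unstimulated WT, 328 and 382 in WT after R848, 629 and 985 in unstimulated Padi4 KO, and 654 and 620 in Padi4 KO after R848. Unlike H3f3a, it was not higher in CPM after R848 in either genotype. Its log2 fold change was -0.19 ± 0.09 in WT (edgeR adjusted p = 0.127), and it fell by 0.31 ± 0.08 in Padi4 KO (adjusted p = 0.000863). The WT value passed the test with library size alone (-0.49, edgeR adjusted p = 1.47e-06) and with the filterByExpr filter (-0.24, adjusted p = 0.0219). Per kb of exon, H3f3a and H3f3b were at 316 and 258 CPM in unstimulated WT and at 642 and 226 after R848.

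The source of H3.3 mRNA moved from H3f3b towards H3f3a with R848 in both genotypes. H3f3a gave 59.7% and 58.3% of the H3.3 counts in unstimulated WT and 57.4% and 57.5% in unstimulated Padi4 KO. After R848 it gave 77.1% and 76.9% in WT and 77.0% and 76.1% in Padi4 KO. The exact 95% intervals lay between 54.8% and 62.5% without R848 and between 74.4% and 79.2% with it, so the treatments did not overlap. The difference of the H3f3a response between genotypes was -0.06 ± 0.10 on the log2 scale (edgeR adjusted p = 0.896). It passed the test without WT R848 replicate 1 (-0.34, edgeR adjusted p = 0.0305) or 2 (-0.29, adjusted p = 0.0768), and the difference for H3f3b, -0.12 ± 0.12 with all libraries, passed without WT R848 replicate 1 (-0.40, adjusted p = 0.0576). The sum of both genes was 1870 ± 0.824 and 2920 ± 7.28 CPM in WT and 1670 ± 7.66 and 2450 ± 102 in Padi4 KO. In the annotation H3f3a overlaps Gm17275 and H3f3aos, both on the opposite strand, and the strand setting of the counting is not given in the sources used here. How reads shared with near-identical copies of H3f3a were treated is not known.

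**Figure D3:**
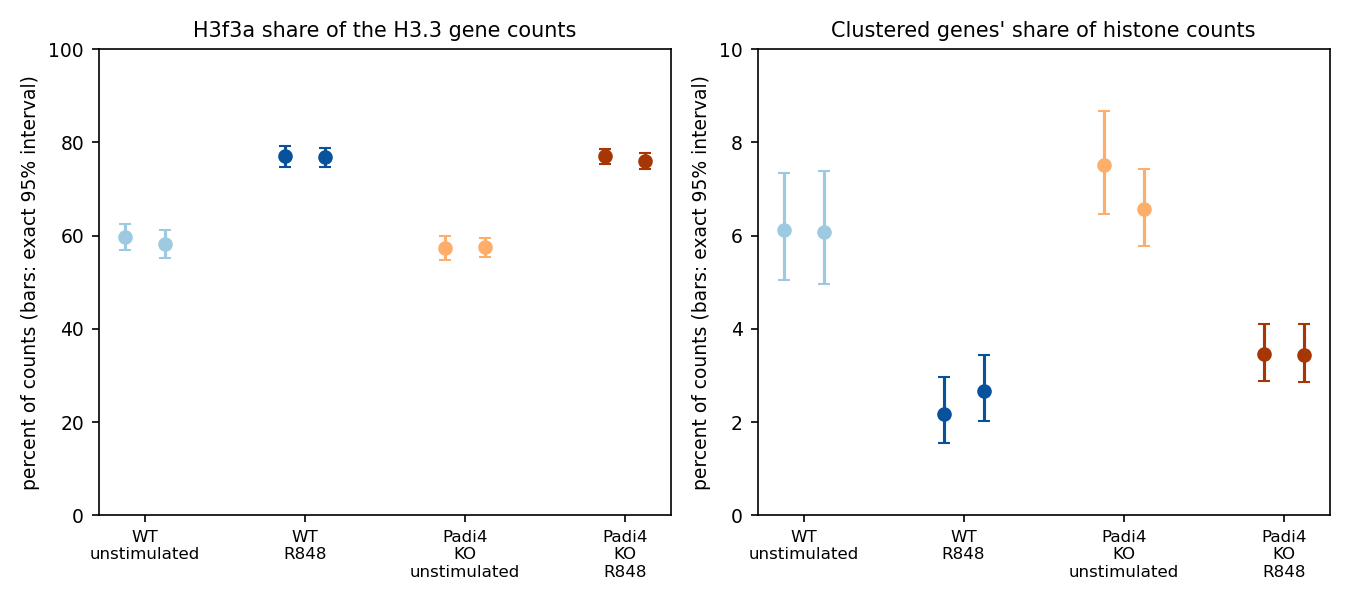
Shares of counts in each of the 8 libraries with exact 95% intervals: H3f3a among H3.3 counts (left) and clustered genes among all histone counts (right). The H3f3a share lies between 57.4% and 59.7% without R848 and between 76.1% and 77.1% with it, and the clustered share between 6.08% and 7.51% and between 2.17% and 3.46%.

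H2A.Z, the variant that marks the nucleosomes around active promoters, is encoded by H2afz and H2afv. H2afz (ENSMUSG00000037894.13, chr3:137864487-137866922, plus strand) had 201 and 165 counts in unstimulated WT, 221 and 277 in WT after R848, 298 and 441 in unstimulated Padi4 KO, and 404 and 416 in Padi4 KO after R848. It went from 298 ± 18.3 to 470 ± 28.3 CPM in WT and from 328 ± 12 to 371 ± 16.5 in Padi4 KO, with no overlap between treatments in either genotype. It rose by 0.66 ± 0.11 on the log2 scale in WT (edgeR adjusted p = 1.08e-07) and was at 0.18 ± 0.10 in Padi4 KO (adjusted p = 0.156). The WT response was larger, with a Padi4 KO minus WT difference of -0.48 ± 0.15 (edgeR adjusted p = 0.0422), the only member called in that test beside 1.26% of all genes called lower, while 0 members were called higher beside 3.45%. That call was lost without WT unstimulated replicate 2 (-0.42, adjusted p = 0.21), without Padi4 KO unstimulated replicate 1 (-0.46, adjusted p = 0.142) and with counts thinned to the smallest library (-0.43, adjusted p = 0.177), all by edgeR. With library size alone H2afz was called lower after R848 in Padi4 KO, the opposite direction (-0.20, edgeR adjusted p = 0.0966).

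H2afv (chr11:6427229-6444443, minus strand) moved the other way in WT. It had 35 and 36 counts in unstimulated WT, 15 and 19 in WT after R848, 35 and 69 in unstimulated Padi4 KO, and 50 and 44 in Padi4 KO after R848. It fell by 0.84 ± 0.30 in WT (SE, edgeR adjusted p = 0.0214) and was at -0.11 ± 0.21 in Padi4 KO (adjusted p = 0.751), and the difference of the responses, 0.73 ± 0.37, did not pass the test (adjusted p = 0.363). The WT call was lost with DESeq2 (adjusted p = 0.203), without WT unstimulated replicate 2 (-0.75) and without WT R848 replicate 1 (-0.64) or 2 (-0.82). With library size alone H2afv was called lower in Padi4 KO as well (-0.49, edgeR adjusted p = 0.0562). The H2afz share of H2A.Z counts was 85.2% and 82.1% in unstimulated WT and 93.6% in both WT libraries after R848. In Padi4 KO it was 89.5% and 86.5% without and 89.0% and 90.4% with R848, so the treatments overlapped there.

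The macroH2A gene H2afy fell in both genotypes. MacroH2A carries a large extra domain and is found in silent chromatin. H2afy (ENSMUSG00000015937.15, chr13:56073619-56136361, minus strand) had 100 counts in both unstimulated WT libraries, 33 and 51 in WT after R848, 126 and 259 in unstimulated Padi4 KO, and 92 and 82 in Padi4 KO after R848. It went from 164 ± 12.8 to 78.8 ± 16.3 CPM in WT and from 165 ± 32.2 to 78.5 ± 4.51 in Padi4 KO, with no overlap between treatments. It fell by 1.04 ± 0.19 in WT (edgeR adjusted p = 5.32e-07) and by 1.10 ± 0.14 in Padi4 KO (adjusted p = 9.18e-14). The second macroH2A gene, H2afy2, had at most 2 counts in a library.

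H2A.X, whose phosphorylated form marks DNA breaks, is encoded by H2afx (chr9:44334694-44336077, plus strand). It had 59 and 53 counts in unstimulated WT, 28 and 39 in WT after R848, 89 and 121 in unstimulated Padi4 KO, and 69 and 63 in Padi4 KO after R848. It fell by 0.64 ± 0.17 in Padi4 KO (edgeR adjusted p = 0.000848) and by 0.52 ± 0.23 in WT (adjusted p = 0.0756). The WT call was lost with DESeq2 (-0.46, adjusted p = 0.358), relative log expression factors (-0.45), thinned counts (-0.46) and without any of 6 libraries. These were WT unstimulated replicate 1 (-0.53) or 2 (-0.52), WT R848 replicate 1 (-0.27) or 2 (-0.58), and Padi4 KO R848 replicate 1 (-0.43) or 2 (-0.43).

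H2afj (chr6:136808244-136810074, plus strand), a replication-independent H2A gene, had 50 and 33 counts in unstimulated WT, 18 and 33 in WT after R848, 39 and 80 in unstimulated Padi4 KO, and 69 and 83 in Padi4 KO after R848. On the CPM scale the treatments overlapped in WT, and in Padi4 KO both R848 libraries were higher. The rise of 0.39 ± 0.18 in Padi4 KO (edgeR adjusted p = 0.0991) was lost in 11 of 15 alternatives and was 0.01 with library size alone. Among these were the fits without WT unstimulated replicate 2 (0.39), Padi4 KO unstimulated replicate 1 (0.24), WT R848 replicate 1 (0.25) or 2 (0.26), and Padi4 KO R848 replicate 1 (0.40) or 2 (0.10). The WT value was -0.49 ± 0.26 (edgeR adjusted p = 0.174). It passed the test with library size alone (-0.79), the filterByExpr filter (-0.54) and without WT unstimulated replicate 2 (-0.68). The Padi4 KO minus WT difference of the responses was 0.87 ± 0.32 (edgeR adjusted p = 0.115). It passed with filterByExpr (0.87, adjusted p = 0.093), the replicate block (0.91, adjusted p = 0.0878), thinned counts (1.18, adjusted p = 0.0445) and without WT unstimulated replicate 2 (1.07, adjusted p = 0.0799) or Padi4 KO unstimulated replicate 2 (1.12, adjusted p = 0.0791), all by edgeR.

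**Figure D4:**
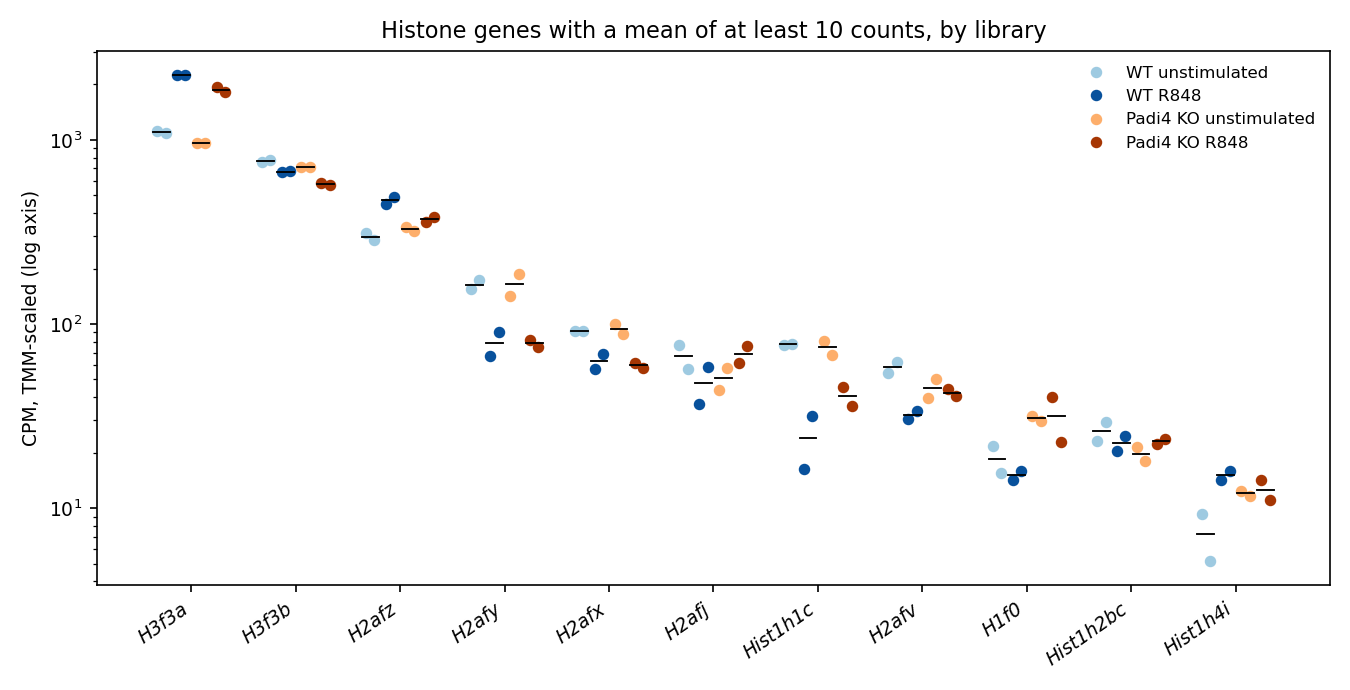
Level of the 11 members with a mean of at least 10 counts in each library, in CPM with TMM factors on a log axis, with a line at each group mean. H3f3a lies highest, at 963 to 2249 CPM on average, and Hist1h4i lowest, at 7.23 to 15.1.

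Hist1h1c, the linker histone H1.2, was the most counted clustered gene and fell in both genotypes. Hist1h1c (ENSMUSG00000036181.2, chr13:23738808-23740367, plus strand) had 50 and 45 counts in unstimulated WT, 8 and 18 in WT after R848, 72 and 94 in unstimulated Padi4 KO, and 51 and 39 in Padi4 KO after R848. It went from 77.5 ± 0.279 to 24.1 ± 11 CPM in WT and from 74.8 ± 9.33 to 40.6 ± 6.69 in Padi4 KO, and the treatments did not overlap. It fell by 1.65 ± 0.30 in WT (edgeR adjusted p = 3.1e-07) and by 0.85 ± 0.19 in Padi4 KO (adjusted p = 6.4e-05). The smaller Padi4 KO value did not differ from WT past the threshold, with a difference of 0.80 ± 0.37 (edgeR adjusted p = 0.291).

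Other linker genes were at a few counts. Hist1h1d had 3 and 1 counts in unstimulated WT, 0 and 1 in WT after R848, 7 and 8 in unstimulated Padi4 KO, and 1 and 1 in Padi4 KO after R848. Hist1h1e had 3 and 1, 0 and 1, 5 and 11, and 3 and 0 counts in the same order. In Padi4 KO both fell, Hist1h1d to 0.136 of its unstimulated level (95% counting interval 0.0151 to 0.586, edgeR adjusted p = 0.0141) and Hist1h1e to 0.192 (0.0358 to 0.67, adjusted p = 0.0238). Both calls were lost with DESeq2 (adjusted p = 0.19 and 0.298), and that of Hist1h1e with thinned counts (-1.31 on the log2 scale) and without Padi4 KO unstimulated replicate 2 (-1.94) or R848 replicate 2 (-1.48). Hist1h1e overlaps Hist1h2be on the same strand in the annotation, so their reads are uncertain.

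H1f0, the linker histone H1.0 of cells that have stopped dividing, had 14 and 9 counts in unstimulated WT, 7 and 9 in WT after R848, 28 and 41 in unstimulated Padi4 KO, and 45 and 25 in Padi4 KO after R848. It was not called in either response, at -0.30 ± 0.47 and 0.05 ± 0.25 on the log2 scale. H1fx had at most 1 count in a library.

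Among the H2B genes, Hist1h2bg fell in both genotypes, whereas Hist1h2bc and Hist1h2be did not pass the test. Hist1h2bg (ENSMUSG00000058385.8, chr13:23571396-23572013, plus strand) had 7 and 8 counts in unstimulated WT, 0 and 1 in WT after R848, 13 and 19 in unstimulated Padi4 KO, and 0 and 1 in Padi4 KO after R848. R848 libraries were at 0.0774 of the unstimulated level in WT (95% counting interval 0.00184 to 0.503) and at 0.032 in Padi4 KO (0.000785 to 0.191). The fall passed edgeR's test in WT (adjusted p = 0.00513) and in Padi4 KO (adjusted p = 2.37e-07), and the WT call was lost with DESeq2 (adjusted p = 0.11) and without WT R848 replicate 1 (-2.56 on the log2 scale, adjusted p = 0.104). Hist1h2bc (chr13:23684199-23692908, plus strand) had 15 and 17 counts in unstimulated WT, 10 and 14 in WT after R848, 19 and 25 in unstimulated Padi4 KO, and 25 and 26 in Padi4 KO after R848. Its log2 fold changes were -0.20 ± 0.40 and 0.24 ± 0.31 (edgeR adjusted p = 0.784 and 0.599). Hist1h2be had 7 and 5, 6 and 4, 9 and 10, and 8 and 15 counts in the same order, and log2 fold changes of -0.05 ± 0.64 and 0.30 ± 0.47.

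The only H4 gene with a mean of at least 10 counts was Hist1h4i (chr13:22040636-22041362, minus strand). It had 6 and 3 counts in unstimulated WT, 7 and 9 in WT after R848, 11 and 16 in unstimulated Padi4 KO, and 16 and 12 in Padi4 KO after R848. Neither response passed the test, at 1.03 ± 0.60 and 0.08 ± 0.41 on the log2 scale (edgeR adjusted p = 0.227 and 0.915). The 34 clustered members other than Hist1h1c, Hist1h1d, Hist1h1e, Hist1h2bg, Hist1h2bc and Hist1h4i summed to 238 counts over all libraries with at most 15 in a library, in Hist1h2be, and none was called in any comparison. The clustered members lie on chromosome 13 (33), chromosome 3 (5) and chromosome 11 (2). Of the 50 members, 14 had counts in exactly 2 libraries, 2 or 3 in total, and 13 had counts in all 8.

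Few histone genes were called between genotypes. Without stimulation, 0 members were higher in Padi4 KO beside 9.55% of all genes and 1 was lower beside 14.4%. That gene was H3f3a, at -0.20 ± 0.08 on the log2 scale (edgeR adjusted p = 0.0488), where the median over the 6912 genes with a mean of at least 10 counts was -0.16. The call was lost in 11 of 15 alternatives, and library size alone gave 0.086 and DESeq2 -0.14. These included leaving out any 1 of the 8 libraries, with values from -0.22 to -0.05. The balance turned with the scaling and the libraries. With library size alone 3 members were higher and 0 lower, H1f0 (0.98, edgeR adjusted p = 0.0261), H2afz (0.42, adjusted p = 0.00183) and H2afy (0.34, adjusted p = 0.0809). H1f0 was also called higher without WT R848 replicate 1 (0.83) or 2 (0.85) and without Padi4 KO R848 replicate 1 (0.83) or 2 (0.83), and H2afz without WT R848 replicate 1 (0.26) or 2 (0.28), against 0.70 and 0.13 with all libraries. After R848, 3 members were lower in Padi4 KO, beside 7.81% of all genes, and 1 was higher, beside 9.46%. The lower genes were H3f3a (-0.26 ± 0.07, edgeR adjusted p = 0.00317), H2afz (-0.35 ± 0.10, adjusted p = 0.00761) and H3f3b (-0.22 ± 0.09, adjusted p = 0.0778). With library size alone, where the median of all genes stood at 0.21 in place of 0.00, none of these passed, at -0.05, -0.13 and -0.01, and 3 members were called higher in their place, H1f0, Hist1h1c and H2afj (0.72, edgeR adjusted p = 0.0163). The H3f3b call was also lost without Padi4 KO unstimulated replicate 1 or 2 (adjusted p = 0.107 by edgeR for each).

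The member higher in Padi4 KO after R848 was H1f0, by 1.05 ± 0.38 on the log2 scale (edgeR adjusted p = 0.0419). Its level was 15.1 ± 1.18 CPM in WT and 31.5 ± 12 in Padi4 KO, and without stimulation 18.6 ± 4.32 and 30.7 ± 1.35. The groups did not overlap in either condition. The call was lost with DESeq2 (0.96, adjusted p = 0.383) and without WT R848 replicate 1 (0.84), WT R848 replicate 2 (1.06) or Padi4 KO R848 replicate 1 (0.48). The erythroid markers given above, 1640 to 1700 CPM in these Padi4 KO libraries and 23.9 to 29.5 in WT, moved with it, and their part in the result was not tested.

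Genes of DNA replication, with which clustered histone genes are normally transcribed, did differ between genotypes. Of 24 replication and cell cycle genes, 17 were higher in Padi4 KO without stimulation and 0 lower, beside 9.55% and 14.4% of all genes tested. After R848, 19 were higher and 0 lower, beside 9.46% and 7.81%. Their median log2 fold changes over the 22 genes with a mean of at least 10 counts were 0.89 and 1.86, beside -0.16 and 0.00 over all such genes. Mcm7, a subunit of the replicative helicase, had 39 and 45 counts in unstimulated WT and 143 and 239 in unstimulated Padi4 KO, and was higher by 1.30 ± 0.17 (edgeR adjusted p = 3.74e-12). Mcm2, of the same helicase, was higher by 1.64 ± 0.20, Rrm1, which makes deoxynucleotides, by 1.09 ± 0.15, and Ccne1, the cyclin of the entry into S phase, by 2.43 ± 0.34. The 11 histone members with such a mean, 8 of them variant genes, had medians of -0.08 without stimulation and -0.02 after R848. Of the 3 clustered genes among them, Hist1h1c stood at -0.08 ± 0.19 without stimulation (edgeR adjusted p = 0.866) and at 0.72 ± 0.31 after R848 (adjusted p = 0.113), where both Padi4 KO libraries were above both WT libraries. This higher value after R848 passed the test with library size alone (0.93, edgeR adjusted p = 0.0207), with edgeR's filterByExpr filter (0.73, adjusted p = 0.0795), with thinned counts (0.92, adjusted p = 0.0961) and without WT R848 replicate 2 (1.23, adjusted p = 0.0704). Hist1h2bc stood at -0.42 ± 0.35 and 0.02 ± 0.37 and Hist1h4i at 0.69 ± 0.55 and -0.26 ± 0.47 in the same order, none of them called. The sum of all 68 clustered symbols was 167 ± 2.0 CPM in WT and 181 ± 15.9 in Padi4 KO without stimulation. After R848 this sum was 90.2 ± 15.2 and 111 ± 3.72 CPM. With library size alone it was 170 and 225 CPM without stimulation, and 74.6 and 106 after R848. The sums were not tested, and poly(A) selection recovers stem-loop mRNAs poorly. The erythroid sum, higher in Padi4 KO in both conditions, moved with the replication genes. Without stimulation the monocyte sum (584 to 669 CPM in WT, 1430 to 1450 in Padi4 KO) and the stromal sum (217 to 240, 589 to 767) were also higher in Padi4 KO, and the neutrophil sum was lower in both conditions. The part of these markers was not tested.

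**Figure D5:**
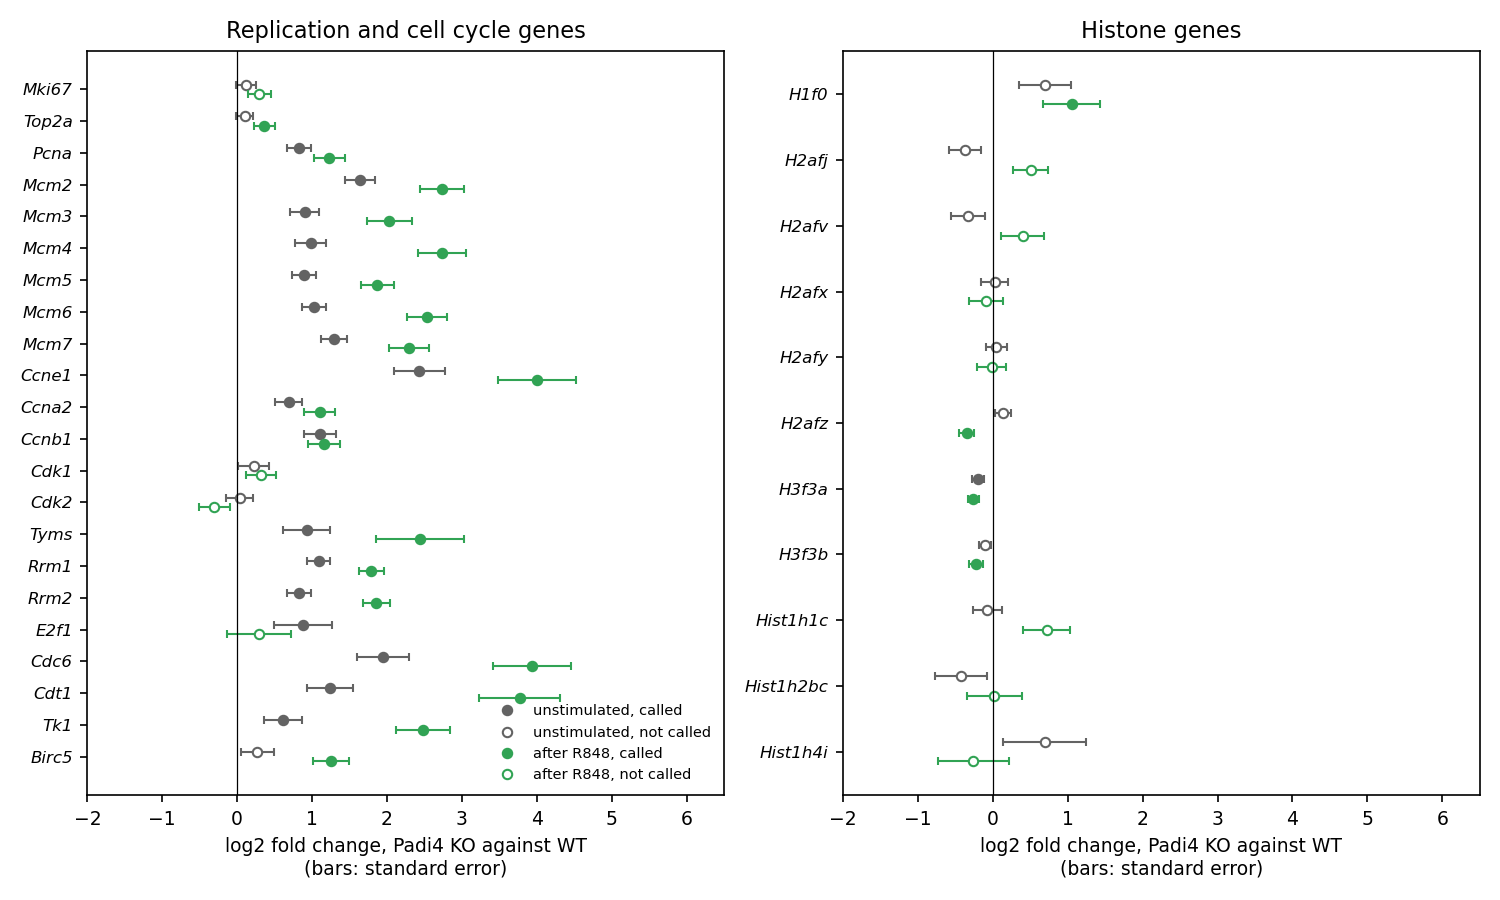
Log2 fold change of Padi4 KO against WT without stimulation and after R848 for 22 replication and cell cycle genes and the 11 histone members with a mean of at least 10 counts. Bars are standard errors and filled points calls. The medians of the replication genes lie at 0.89 and 1.86 and those of the histone members at -0.08 and -0.02.

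With R848, 15 of the 24 replication genes fell in WT and 0 rose, and 9 fell and 1 rose in Padi4 KO, beside 13.5% rising and 16% falling of all genes tested in WT and 19.2% and 15.9% in Padi4 KO. Their medians were -1.11 and -0.25, beside -0.07 and 0.08 over all genes with a mean of at least 10 counts. The erythroid sum moved with them in WT, from 153 to 156 CPM down to 23.9 to 29.5, and stood at 1600 to 1700 in Padi4 KO, and the stromal sum was lower after R848 in both genotypes. Of 22 genes that transcribe histone genes or form the 3′ ends of their mRNAs, 1 rose and 2 fell in WT, and 3 rose and 5 fell in Padi4 KO, to be read against the same shares of all genes. Slbp, the protein that binds the stem-loop, had 45 and 41 counts in unstimulated WT, 37 in both WT libraries after R848, 70 and 106 in unstimulated Padi4 KO, and 114 and 125 in Padi4 KO after R848. It rose by 0.47 ± 0.15 in Padi4 KO (edgeR adjusted p = 0.00977) and was at 0.00 ± 0.23 in WT, and the difference did not pass the test (0.47 ± 0.28, adjusted p = 0.499). Lsm10, of the U7 particle that cleaves histone pre-mRNA, rose by 1.42 ± 0.36 in WT and 1.38 ± 0.28 in Padi4 KO (edgeR adjusted p = 0.000531 and 6.12e-06). Zcchc8 went the other way in WT (-0.769 ± 0.241, edgeR adjusted p = 0.00804) and was at 0.129 ± 0.169 in Padi4 KO. It was the 1 gene of this list called in the difference of responses (0.898 ± 0.295, edgeR adjusted p = 0.0644). Pcf11 was called in neither response and was lower in unstimulated Padi4 KO than in WT (-0.661 ± 0.215, edgeR adjusted p = 0.0147).

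Of 30 histone chaperones and exchange factors, which carry histones to and from DNA, 3 rose and 12 fell with R848 in WT, and 4 rose and 13 fell in Padi4 KO. Of all genes tested, 13.5% rose and 16% fell in WT and 19.2% rose and 15.9% fell in Padi4 KO. The stromal sum, from 217 to 240 CPM down to 22.4 to 22.9 in WT and from 589 to 767 down to 36.1 to 37.4 in Padi4 KO, and the erythroid sum in WT were also lower after R848, and their part was not tested. Cabin1, of the HIRA complex that deposits H3.3, fell by 1.87 ± 0.29 in WT and by 1.39 ± 0.22 in Padi4 KO (edgeR adjusted p = 8.64e-10 and 1.38e-09). Nap1l1, a chaperone of H2A and H2B, fell by 1.39 ± 0.27 and by 0.97 ± 0.15 (adjusted p = 1.73e-06 and 3.44e-10 by edgeR). Between genotypes, 12 chaperone genes were higher and 3 lower in Padi4 KO without stimulation, and 13 higher and 1 lower after R848, beside 9.55% and 14.4% and then 9.46% and 7.81% of all genes. The erythroid markers, at 153 to 156 CPM in unstimulated WT and 1600 to 1610 in unstimulated Padi4 KO, moved with them. Without stimulation the monocyte sum (584 to 669 CPM in WT, 1430 to 1450 in Padi4 KO) and the stromal sum were also higher. The neutrophil sum was lower in Padi4 KO in both conditions. The part of these markers was not tested. Npm1, a chaperone of the nucleolus, was higher in Padi4 KO by 2.20 ± 0.17 without stimulation and by 1.70 ± 0.25 after R848 (edgeR adjusted p = 1.49e-36 and 4.48e-10). Of the 5 peptidylarginine deiminase genes, 3 were tested. Padi4 fell by 1.27 ± 0.10 on the log2 scale with R848 in WT (edgeR adjusted p = 2.84e-34). Its remaining counts in Padi4 KO were also lower after R848 (-0.741 ± 0.241, edgeR adjusted p = 0.00917). The difference of these responses was not called (0.528 ± 0.271, edgeR adjusted p = 0.379).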

How the data were processed

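RNA from 8 neutrophil libraries in 4 groups of 2, taken from the sample labels, was sequenced in paired ends on a MiSeq after a TruSeq RNA v2 preparation. Per the labels, the authors processed the reads with FastQC 0.11.7, cutadapt 1.16, STAR 2.5.3a on mm10 and HTSeq 0.6.1p1, and deposited raw, unnormalized counts by gene symbol. The annotation and strand setting are not given in the sources used here. The 5 summary lines of HTSeq were left out, and 86.97% to 89.45% of the reads in the table were on genes. The line for reads matching several places was at 0, so how reads shared by near-identical histone copies were treated is not known.

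Genes with at least 1 count in at least 2 libraries (12254) were fitted with edgeR 4.0.16 (R 4.3.3, limma 3.58.1): TMM factors, 1 mean for each group, robust quasi-likelihood fit, two-sided tests, Benjamini-Hochberg adjustment over all genes, calls at a false discovery rate below 0.1. The biological coefficient of variation was 4.68%. Standard errors were derived from the F statistic. CPM values use TMM factors, and marker sums and floors use library totals. DESeq2 1.42.0, the tool of the study's methods, was run as an alternative, with other scalings and filters, thinned counts, the replicate number as a block, a false discovery rate of 0.05 and each library left out. The test was checked on simulated data. The chi-square per degree of freedom between duplicates was 1.67 for WT after R848 and 1.05 to 1.16 for the other 3 groups, where 1 is sampling noise.

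The members and gene lists were chosen with earlier results of these data known. Named were all variant members, clustered members with a mean of at least 10 counts and up to 4 genes of each list by smallest p. Hist1h2bg, Hist1h1d, Hist1h1e and Hist1h2be fall outside that rule and were chosen after their values were seen. Intervals and floors of 3 counts cover counting error only.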

Additional observations from a re-analysis of the deposited data

Results flagged for a closer look

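The R848 response of H2afz differed between the genotypes by the test of the difference itself. The Padi4 KO response minus the WT response was -0.48 on the log2 scale (edgeR adjusted p = 0.0422), from a rise of 0.66 in WT and a value of 0.18 in Padi4 KO. With a library left out in turn, the difference ranged from -0.81 to -0.42. The call was lost without WT unstimulated replicate 2 (-0.42) and without Padi4 KO unstimulated replicate 1 (-0.46). It was also lost with counts thinned to the smallest library (-0.43, edgeR adjusted p = 0.177). DESeq2 gave -0.64 with an adjusted p of 0.0536.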

How the results depend on the processing

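The numbers of members called were 7 for the R848 response in WT, 9 in Padi4 KO, 1 and 4 for Padi4 KO against WT without stimulation and after R848, and 1 for the difference of responses. DESeq2 gave 4 for the WT response and 0 for the genotypes without stimulation. For that comparison, with 0 higher and 1 lower as reported, relative log expression factors gave 0, thinned counts 2, both lower, and library size alone 3, all higher, while the fits without an R848 library gave 1 or 2, all higher. After R848, library size alone gave 3 higher and 0 lower in place of 1 and 3. For the difference of responses, edgeR's filterByExpr filter gave 2. With a library left out, the numbers ranged over 4 to 7, 7 to 9, 0 to 2, 3 to 5 and 0 to 3 in the same order. The replicate block gave 2 for the difference of responses, adding H2afj, and changed no other number by over 1.5 times. With thinned counts and without WT unstimulated replicate 2 the number stayed at 1, but the gene called was H2afj, higher, and not H2afz. The replicate numbers did not pair the libraries, whose deviations correlated by -0.0192 to 0.0208 over 6912 genes. With library size alone, the H2afz response in Padi4 KO was called lower, at -0.20 in place of 0.18, and H3f3a without stimulation was 0.086 in place of -0.20, and the median of all genes moved from -0.07 to -0.38 for the WT response and from 0.08 to -0.30 in Padi4 KO. Of 22 called values of single members, 10 kept their direction and their call in every alternative run: both responses of H3f3a, H2afy and Hist1h1c, the WT response of H2afz, and the Padi4 KO responses of H3f3b, H2afx and Hist1h2bg. Where a call was lost, the cause was not tested. With 3 counts worth up to 5.33 CPM, changes in the 33 members with at most 10 counts were mostly not detectable at this depth.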
